A study of Mus musculus with 4 samples.

Results

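The 10 BCL2 family genes described here were chosen by name: Bcl2, Bcl2l1 (encoding BCL-XL), Mcl1, Bax, Bak1, Bcl2l11 (BIM), Bbc3 (PUMA), Pmaip1 (NOXA), Bid and Bad. Each was found by its name as 1 row among the 55421 genes of the deposited count table. The list of names was drawn up with earlier results of these data known. Their transcripts were measured by RNA-seq of poly(A) RNA in primary cultures of spermatogonia from CD1 mice, set up from the testes of pups 6 days old and kept on irradiated mouse embryonic fibroblasts (feeder cells from CF1 mice), so that every library holds RNA of both. The Veh group (2 libraries) stayed in complete SSC medium. The NRRA group (2 libraries) received, for 2 days, a nutrient restriction medium of 10% complete medium and 90% Earle's salt solution together with 100 nM retinoic acid (RA). The question put to these genes is how members that keep cells alive and members that drive cell death compare between Veh and NRRA. The design has no library with RA alone or with nutrient restriction alone, so that the parts of the treatment cannot be told apart.

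BCL2 family proteins decide whether the outer membrane of the mitochondrion stays closed. The effectors BAX and BAK1 open it and release cytochrome c, the pro-survival proteins BCL2, BCL-XL and MCL1 hold the effectors in check, and the BH3-only proteins relay stress by binding the pro-survival proteins or by activating the effectors. In the postnatal testis, removal of surplus germ cells during the first wave of spermatogenesis depends on BAX, and many of these proteins are controlled after translation, which RNA levels do not show.

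The totals of counts lay between 28022265 and 31604769 per library, and the members had between 83 and 4293 counts in a library, so that none was near the floor of 3 counts used here. Stra8, the RA-induced gatekeeper of meiotic entry, served as the check of the treatment and rose from 9.62 and 10.1 CPM (counts scaled by TMM-adjusted library size) in Veh to 1864 and 1853 CPM in NRRA. All 12 germ cell markers listed were detected in every library with at least 744 counts. The germ cell list took 0.252% and 0.258% of the counts in Veh and 0.300% and 0.299% in NRRA, whereas the fibroblast feeder list of 22 markers took 1.199% and 1.189% in Veh and 0.966% and 0.944% in NRRA. Fn1 gave the most counts in the feeder list, with 166615 and 181105 in Veh and 142061 and 131008 in NRRA. S100a4, by which the study named the fibroblast cluster of its single-cell data, had 11 to 29 counts. Of the 12 Sertoli and Leydig cell markers, Amh (1 to 3 counts), Hsd3b1 (0 or 1 count), Insl3 (0 to 6 counts) and Cyp11a1 (4 to 10 counts) were close to 0, whereas Inhba (1236 to 2942 counts), Inhbb (1164 to 2744), Clu (219 to 1918) and Sox9 (284 to 874) were well detected. The list took 0.023% and 0.024% of the Veh counts and 0.017% of those of either NRRA library. By the general statement of the study, replicates for sequencing were biologically independent, while the labels do not tie these libraries to particular cultures or mice, and p-values measure the spread between these samples. In whole libraries, a lower level through fewer cells of a type and through less RNA per cell cannot be told apart.

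All 10 members passed the filter on low counts, and each differed between the groups by edgeR's quasi-likelihood test with Benjamini-Hochberg adjustment over 20232 genes (adjusted p under 0.05). Bcl2, Bcl2l11 and Bad were higher in NRRA, and Bcl2l1, Mcl1, Bax, Bak1, Bbc3, Pmaip1 and Bid were lower. The background for these counts is high, since 56.4% of all genes tested were called, 27.9% as higher and 28.4% as lower, and 67.3% of the 10907 genes with a mean level within the range of the members were called. The changes of most members were small. The median absolute log2 fold change was 0.34 over the members and 0.33 over all genes tested, and the median signed value was −0.26 for the members and 0.00029 for all genes. Only Pmaip1 and Bcl2 differed at least 2-fold, a size that 13.3% of all genes reached with a call. For 9 members, all but Bbc3, the CPM values of the groups did not overlap, as was the case for 76.7% of all genes tested. When the test was against a 1.2-fold change rather than against no change, 1 member was higher (Bcl2) and 1 was lower (Pmaip1), beside 15.9% of all genes tested as higher and 16.3% as lower.

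**Figure D1:**
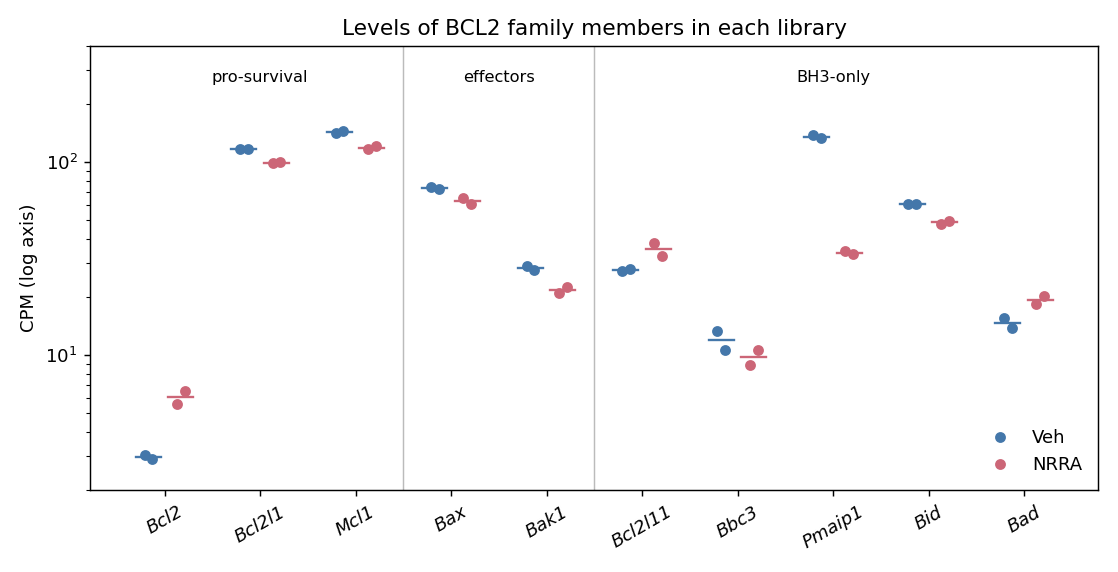
CPM of the 10 members on a log axis, with 1 point for each library and a line at the mean of each group (n = 2). Pmaip1 drops from 136 to 34.1 CPM and Bcl2 goes from 2.98 to 6.05 CPM, while the other members differ by at most 1.32-fold.

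The RefSeq sequence of the 250 bases before the start site (GRCm38.p6) was at hand for 9 of the 10 members, all but Pmaip1. It is shown for the 3 members that rose, Bcl2, Bcl2l11 and Bad, and for Mcl1 and Bax, a pro-survival member and an effector that fell. None of these 5 windows holds an annotated exon. They are chr1:106714291-106714540 (minus strand) for Bcl2, chr2:128125788-128126037 (plus strand, the first of 2 windows) for Bcl2l11, chr19:6941611-6941860 (plus strand, the first of 2 windows) for Bad, chr3:95658471-95658720 (plus strand) for Mcl1 and chr7:45466899-45467148 (minus strand) for Bax. Each is written 5′ to 3′ toward the gene, and capitals mark matches, on either strand, to the GC box GGGCGG, the E-box CACGTG, the cAMP response element TGACGTCA, the FOXO core GTAAACA, the CCAAT box CCAAT, the motif CNCCTCAG bound by STRA8, or the p53 decamer motif.
Bcl2: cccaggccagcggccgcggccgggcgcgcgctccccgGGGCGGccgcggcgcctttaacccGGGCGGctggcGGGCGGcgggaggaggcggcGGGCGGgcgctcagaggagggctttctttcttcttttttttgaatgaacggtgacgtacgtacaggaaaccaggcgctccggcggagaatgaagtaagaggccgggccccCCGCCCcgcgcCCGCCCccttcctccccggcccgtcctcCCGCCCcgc
Bcl2l11: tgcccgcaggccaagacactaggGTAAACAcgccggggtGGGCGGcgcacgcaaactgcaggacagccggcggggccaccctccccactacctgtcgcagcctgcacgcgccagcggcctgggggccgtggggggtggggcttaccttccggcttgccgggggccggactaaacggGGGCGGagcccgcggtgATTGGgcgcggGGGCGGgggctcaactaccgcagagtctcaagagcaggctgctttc
Bad: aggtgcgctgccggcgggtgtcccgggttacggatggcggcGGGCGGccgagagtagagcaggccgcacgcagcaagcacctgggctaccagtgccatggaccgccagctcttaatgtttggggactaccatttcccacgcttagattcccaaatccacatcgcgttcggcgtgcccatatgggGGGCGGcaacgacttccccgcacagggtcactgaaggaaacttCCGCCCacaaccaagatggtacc
Mcl1: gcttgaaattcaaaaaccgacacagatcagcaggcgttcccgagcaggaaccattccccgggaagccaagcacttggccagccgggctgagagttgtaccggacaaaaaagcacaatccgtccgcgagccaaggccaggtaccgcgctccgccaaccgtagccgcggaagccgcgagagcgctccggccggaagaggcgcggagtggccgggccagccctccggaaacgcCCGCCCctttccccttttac
Bax: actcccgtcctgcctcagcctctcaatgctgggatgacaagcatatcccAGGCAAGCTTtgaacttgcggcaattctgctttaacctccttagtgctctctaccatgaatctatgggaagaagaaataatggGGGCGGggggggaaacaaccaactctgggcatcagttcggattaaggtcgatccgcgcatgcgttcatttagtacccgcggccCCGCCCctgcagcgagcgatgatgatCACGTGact
The Bcl2 window held 7 GC boxes and was 74.8% G or C, against a median of 52.4% over all 32851 windows. The Bcl2l11 window shown held 3 GC boxes, 1 FOXO core and 1 CCAAT box, and its second window held 2 GC boxes and 2 CCAAT boxes. The Bad window shown held 3 GC boxes, whereas its second window, which overlaps annotated exons, held 1 CCAAT box and no GC box. The Mcl1 window held 1 GC box, and the Bax window held 2 GC boxes, 1 E-box and 1 match to the p53 decamer. Among the other members that fell, the 3 Bbc3 windows held 5, 1 and 7 GC boxes and were 76.4%, 72.4% and 81.6% G or C. The second of them also held a FOXO core, and the third an E-box and a CCAAT box. The Bid window held 3 GC boxes, while the Bak1 window and the 3 Bcl2l1 windows held none. The Bak1 window and the first 2 Bcl2l1 windows lie wholly within annotated exons of their own genes. Of all windows of this length, 32.7% held a GC box, 33.8% a CCAAT box, 7.13% the p53 decamer, 6.42% the STRA8 motif, 6.02% the E-box, 3.17% the FOXO core and 1.55% the cAMP response element. The matches describe the letters of these windows, and no binding was measured.

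Among the pro-survival members, Bcl2, the founding member of the family (ENSMUSG00000057329, GRCm38 chromosome 1, 106538178 to 106714274, minus strand), was at 3.06 and 2.89 CPM in Veh and at 5.59 and 6.51 CPM in NRRA. Both NRRA libraries lay above both Veh libraries, and the rise was 2.03-fold (log2 fold change 1.02, SE 0.16, edgeR adjusted p 6.91e-06). At or above this value lay 6.54% of all genes tested. Of the exonic bases of Bcl2, 6.09% overlap D630008O14Rik on the opposite strand, which had 7 to 21 counts in a library against 83 to 196 for Bcl2. The abundant pro-survival members moved the other way.

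Bcl2l1, whose product BCL-XL guards the resting mitochondrion (ENSMUSG00000007659, chromosome 2, 152780668 to 152831728, minus strand), was at 117 CPM in both Veh libraries and at 98.8 and 100.1 CPM in NRRA. The groups did not overlap, and the level fell by 15.2% (log2 fold change −0.24, SE 0.036, edgeR adjusted p 3.44e-06, and −0.15 with library size only). Mcl1, a short-lived pro-survival protein that NOXA binds and helps to clear (ENSMUSG00000038612, chromosome 3, 95658788 to 95663176, plus strand), was at 142 and 144 CPM in Veh and at 117 and 121 CPM in NRRA. Its level fell by 17.2% (log2 fold change −0.27, SE 0.035, edgeR adjusted p 1.90e-07). Per length of exonic sequence, the level of Bcl2 was 0.0127 times that of Bcl2l1 in Veh and 0.0305 times in NRRA, so that Bcl2 stayed the rarest pro-survival member of the 3 in every library.

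Both effectors were lower in NRRA. Bax (ENSMUSG00000003873, chromosome 7, 45461697 to 45466898, minus strand), whose product moves from the cytosol to mitochondria when activated, was at 74.6 and 72.4 CPM in Veh and at 65.6 and 61.0 CPM in NRRA. The highest NRRA value was below the lowest Veh value, and the log2 fold change was −0.21 (SE 0.047, edgeR adjusted p 3.36e-04, and −0.12 with library size only). Bak1 (ENSMUSG00000057789, chromosome 17, 27019810 to 27029009, minus strand), whose product sits in the mitochondrial membrane and is held by MCL1 and BCL-XL, was at 29.1 and 27.6 CPM in Veh and at 21.1 and 22.5 CPM in NRRA. Its log2 fold change was −0.38 (SE 0.072, edgeR adjusted p 6.82e-05), without overlap of the groups. Of the exonic bases of Bak1, 25.5% overlap Ggnbp1 on the opposite strand, and Ggnbp1 moved in the same direction, from 11.1 to 7.59 CPM. The strand setting of the counting is not given in the sources used here, so that reads of this stretch could have been assigned to either gene. The stretch that Bax shares with another gene (12.2% of its exonic bases, on the same strand) belongs to Gm45808, which had 0 counts in every library.

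Of the 5 BH3-only members, 2 rose and 3 fell, and Pmaip1 changed far more than the others. Pmaip1 encodes NOXA, a p53-induced protein that binds chiefly MCL1 (ENSMUSG00000024521). It was at 138 and 133 CPM in Veh and at 34.6 and 33.5 CPM in NRRA, a level 3.98-fold lower in NRRA. The log2 fold change was −1.99 (SE 0.044, 95% interval −2.08 to −1.90, edgeR adjusted p 9.34e-23), and the gap between the groups was many times the difference within either group. Of all genes tested, 506 (2.501%) had a log2 fold change at or below that of Pmaip1. No other gene overlaps its exons, and its log2 fold change stayed between −2.02 and −1.90 over the alternative analyses.

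Bcl2l11 encodes BIM, which binds every pro-survival member and can activate the effectors (ENSMUSG00000027381, chromosome 2, 128126038 to 128162547, plus strand). It was at 27.2 and 28.1 CPM in Veh and at 38.1 and 32.6 CPM in NRRA. The NRRA libraries lay apart from each other but both above Veh, and the rise was 1.28-fold (log2 fold change 0.36, SE 0.071, edgeR adjusted p 1.26e-04, with a range of 0.24 to 0.46 when 1 library was left out). Bad encodes a protein that survival kinases keep inactive by phosphorylation and that binds BCL-XL and BCL2 (ENSMUSG00000024959, chromosome 19, 6941861 to 6951899, plus strand). It was at 15.5 and 13.9 CPM in Veh and at 18.4 and 20.3 CPM in NRRA, without overlap and 1.32-fold higher (log2 fold change 0.40, SE 0.089, edgeR adjusted p 4.31e-04). Of its exonic bases, 20.5% overlap Gpr137 on the opposite strand, which also rose, from 21.7 to 29.6 CPM.

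Bid encodes the member that caspase-8 cuts, which links death receptors to mitochondria (ENSMUSG00000004446, chromosome 6, 120891930 to 120916853, minus strand). It was at 60.7 and 61.0 CPM in Veh and at 47.9 and 49.9 CPM in NRRA, a fall without overlap (log2 fold change −0.32, SE 0.050, edgeR adjusted p 4.72e-06). Bcl2l13, with which 17.7% of its exonic bases overlap on the opposite strand, moved the other way, from 67.5 to 80.2 CPM. Bbc3 encodes PUMA, a p53-induced protein that binds every pro-survival member (ENSMUSG00000002083, chromosome 7, 16308393 to 16318205, plus strand). It was at 13.4 and 10.6 CPM in Veh and at 8.94 and 10.7 CPM in NRRA. Here the groups overlapped, since Veh replicate 2 lay just below NRRA replicate 2, and the log2 fold change of −0.29 (SE 0.12) came with an edgeR adjusted p of 0.042. The call was lost with DESeq2 (adjusted p 0.234), without Veh replicate 1 (log2 fold change −0.12, adjusted p 0.498) and without NRRA replicate 1 (log2 fold change −0.16, adjusted p 0.362), and the value moved by over 1.5 times when either of these libraries, or Veh replicate 2 (−0.46), was left out.

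Levels of different genes were compared as RPKM (CPM per kb of exonic sequence). In Veh the order was Pmaip1 (49.6 RPKM, mean of 2 libraries), Bax (46.6), Mcl1 (41.9), Bcl2l1 (25.6), Bid (17.1), Bak1 (11.8), Bad (5.75), Bbc3 (5.66), Bcl2l11 (3.45) and Bcl2 (0.325 RPKM). Bad and Bbc3 were not separated, and every other pair of neighbours in this order had values that did not overlap. In NRRA the order of RPKM was Bax (40.1), Mcl1 (34.7), Bcl2l1 (21.7), Bid (13.8), Pmaip1 (12.5), Bak1 (9.07), Bad (7.56), Bbc3 (4.62), Bcl2l11 (4.404) and Bcl2 (0.661), with Bbc3 and Bcl2l11 not separated. By this measure Pmaip1 had rank 1 of 10 in Veh and rank 5 in NRRA. The order depended on the gene length used. Per kb of the longest annotated transcript (a setting chosen after seeing the data), Bax came first in Veh (66.8) before Pmaip1 (49.7), Bcl2l1 (45.7) and Mcl1 (41.9), and in NRRA Pmaip1 had rank 6, with Bad (12.6) and Pmaip1 (12.5) not separated and Bcl2l11 (7.02) above Bbc3 (5.41). Bcl2 was last in both groups with either length. Levels from 2 libraries per group allow no p under 0.05 in an exact permutation test, whose smallest two-sided p is 0.333.

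The sides of the family were then set against each other by their summed RPKM, as values with no test. The 3 pro-survival members summed to 67.5 and 68.1 RPKM in Veh and to 56.3 and 57.9 in NRRA. The 2 effectors summed to 59.4 and 57.4 in Veh and to 50.4 and 48.03 in NRRA. The 5 BH3-only members summed to 83.4 and 79.9 in Veh and to 42.3 and 43.4 in NRRA, which is where the sides differed most. Without Pmaip1, the BH3-only sums were 32.9 and 31.1 RPKM in Veh and 29.6 and 31.1 RPKM in NRRA. The share of Pmaip1 in the BH3-only sum was 60.8% ± 0.37 in Veh and 29.1% ± 1.1 in NRRA (SD, n = 2 per group), while that of Bid went from 21.01% to 32.1% and that of Bad from 7.04% to 17.7%.

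**Figure D2:**
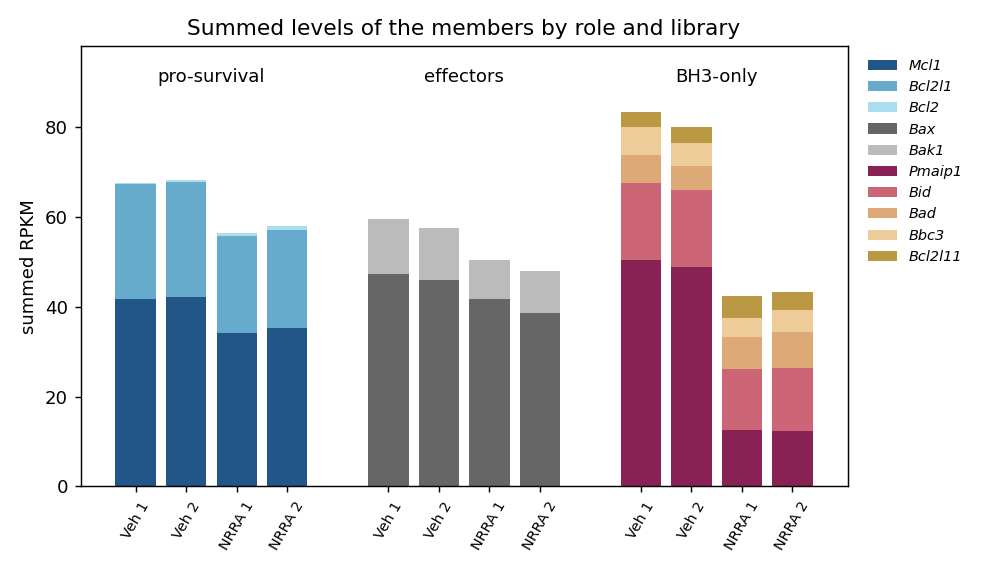
Summed RPKM of the members by role (pro-survival, effector, BH3-only) in each of the 4 libraries, stacked by gene. The BH3-only bars go from 83.4 and 79.9 in Veh to 42.3 and 43.4 in NRRA, mostly through the segment of Pmaip1.

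The log2 ratio of the pro-survival sum to the pro-death sum (effectors plus BH3-only) was −1.08 and −1.01 in Veh and −0.72 and −0.66 in NRRA, a difference of 0.36 between the group means. In linear terms the pro-survival sum was 0.485 ± 0.017 of the pro-death sum in Veh and 0.620 ± 0.018 in NRRA (SD, n = 2 per group). In these summed RPKM, the difference rested on Pmaip1. Without it, the log2 ratios were −0.45 and −0.38 in Veh and −0.51 and −0.45 in NRRA, and the difference was −0.065, with the values of the groups nearly touching. Against the effectors alone, the log2 ratio of the pro-survival members was 0.19 and 0.25 in Veh and 0.16 and 0.27 in NRRA, so that the groups overlapped.

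Ratios between single members moved in both directions. The ratio of Mcl1 to Pmaip1, in RPKM, was 0.826 and 0.865 in Veh and 2.70 and 2.88 in NRRA, so that the order of this pair was turned around in both NRRA libraries. The ratio of Mcl1 to Bcl2l11 went the other way, from 12.3 and 12.1 in Veh to 7.197 and 8.70 in NRRA, as did that of Bcl2l1 to Bad, from 4.21 and 4.72 to 2.996 and 2.75. The ratio of Bcl2l1 to Bax was 0.539 and 0.558 in Veh and 0.518 and 0.564 in NRRA, and these values overlapped. The ratio of Mcl1 to Bak1 was 3.45 and 3.68 in Veh and 3.89 and 3.77 in NRRA, a small gap without overlap. The ratio of Bcl2 to Bax stayed low but rose from 0.00706 and 0.00687 in Veh to 0.0147 and 0.0184 in NRRA.

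Of the 6 other family genes on the pro-survival side, Bcl2l2 (BCL-W), which adult spermatogenesis in mice requires, passed the filter. Bcl2l2 rose from 21.3 ± 0.35 CPM to 25.9 ± 0.049 CPM (mean ± SD of 2 libraries), with a log2 fold change of 0.28 (SE 0.072). Bcl2a1a, Bcl2a1b, Bcl2a1c and Bcl2a1d, near-identical copies, had 0 to 3 assigned counts in any library, and reads that match more than 1 copy may not have been counted. Bcl2l10, known from the oocyte, had 1 to 16 counts. None of these 5 passed the filter. Of the 10 pro-death and divergent relatives, which all passed it, 2 were higher and 3 were lower in NRRA, beside 27.9% and 28.4% of all genes tested. The median log2 fold change of these relatives was 0.085, and 0.17 with library size only, where 4 were higher. It ranged from 0.019 to 0.15 when 1 library was left out.

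Bok, a BAX-like protein that pro-survival members hardly restrain, fell from 36.8 and 32.7 CPM to 10.6 and 11.9 CPM (log2 fold change −1.63, SE 0.084). Bmf, a BH3-only protein tied to the cytoskeleton, fell from 43.8 and 42.3 CPM to 21.6 and 20.1 CPM (−1.05, SE 0.065). In both cases the groups stood well apart, and with Pmaip1 these were the only tested pro-death family genes called with at least 2-fold lower levels. Bnip3, a mitochondrial protein known for hypoxia responses and mitophagy, rose from 10.1 and 10.7 CPM to 33.1 and 34.2 CPM (1.69, SE 0.079), but 94.2% of its longest transcript is near-identical to other annotated loci and its counts are uncertain.

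Smaller changes were those of Bcl2l13, a mitophagy receptor (log2 fold change 0.25), and Bcl2l12 (−0.22, a call lost with DESeq2, adjusted p 0.060, with library size only, where the value was −0.13, and without NRRA replicate 1). Bik, a BH3-only protein of the endoplasmic reticulum, had a log2 fold change of 0.091 (SE 0.14), Hrk, a BH3-only gene of neurons, 0.58 (SE 0.29), and Bnip3l (NIX), a mitophagy receptor, 0.079 (SE 0.038). The values of Bcl2l14 (0.26) and Bcl2l15 (−1.26) rested on 2 to 27 counts per library, and none of these 5 passed the test. With library size only, Bnip3l (0.17, edgeR adjusted p 4.2e-04) and Hrk (0.67, edgeR adjusted p 0.048) passed it.

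**Figure D3:**
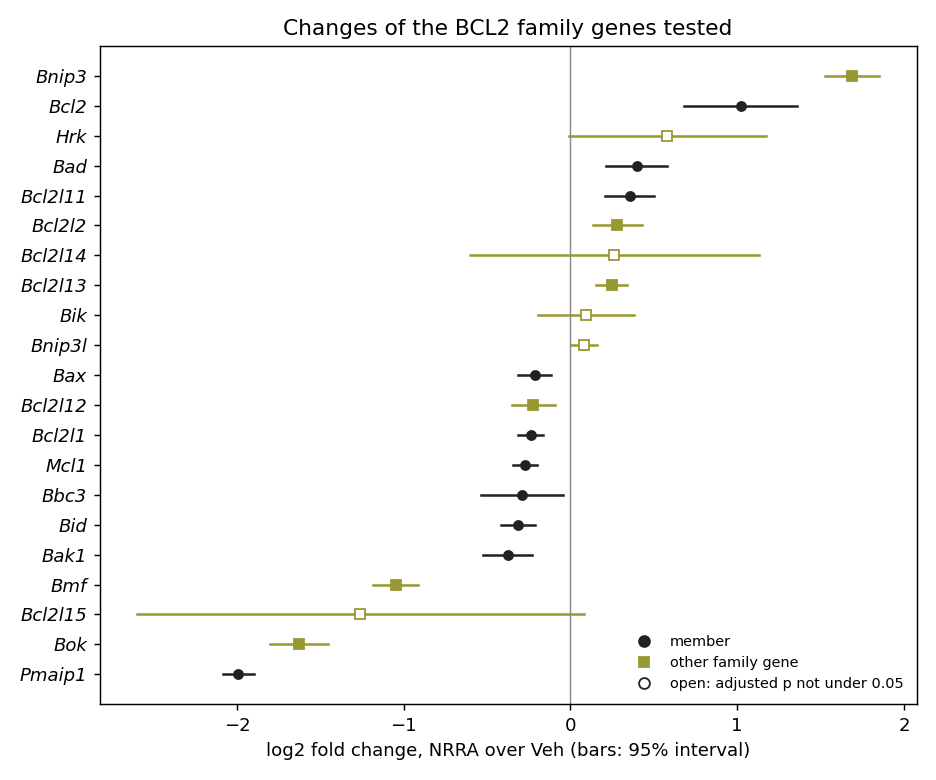
Log2 fold change (NRRA over Veh) with its 95% interval for the 10 members (circles) and for the 11 other BCL2 family genes that passed the filter (squares), where open symbols did not pass the test. Pmaip1, Bok and Bmf lie lowest among the genes called and Bnip3 and Bcl2 highest, while 8 of the members lie between −0.38 and 0.40.

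Downstream of the mitochondrion, released cytochrome c and APAF1 form the apoptosome, which activates caspase-9 and then the executioner caspases. Of 19 such genes and inhibitors, 5 were higher and 6 were lower in NRRA, with a median log2 fold change of −0.08, beside 0.00029 over all genes. These shares lay near those of all genes tested (27.9% higher and 28.4% lower). With library size only, 2 were lower and the median was 0.01. Apaf1 rose from 50.3 and 50.2 CPM to 72.1 and 69.0 CPM, a log2 fold change of 0.49 (SE 0.048). Cycs, encoding cytochrome c, changed by −0.26 (SE 0.053) and the initiator Casp9 by −0.17 (SE 0.043), and both were called lower. The call of Casp9 was lost with library size only. Casp6, an executioner, rose (0.41), as did the caspase inhibitor Xiap (0.20, SE 0.040) and Birc5 (survivin, also a part of the mitotic chromosomal passenger complex, 0.40), whereas Birc3, an inhibitor of apoptosis in receptor signalling, was lower (−0.31, a call lost with DESeq2, with library size only, without Veh replicate 1, where the value was −0.18, and without NRRA replicate 1).

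The death receptor pathway reaches the family through Bid. Of 11 genes, 8 passed the filter, 2 of which were higher and 3 lower in NRRA, beside 27.9% and 28.4% of all genes tested. The median log2 fold change was −0.02, and it had no stable sign, at 0.072 with library size only, −0.20 with DESeq2 (which also covers genes under the filter) and −0.095 without NRRA replicate 1. Tnfrsf1a, the main receptor for TNF, changed by −0.67 (SE 0.045), Cflar, which encodes the caspase-8 inhibitor FLIP, by −0.53 (SE 0.052), and Fas, a death receptor, by −0.38 (SE 0.10). The adaptor kinase Ripk1 rose by 0.32 (SE 0.070) on the log2 scale, and Traf2 was called higher at 0.19, a call that was lost with DESeq2 (adjusted p 0.158), without Veh replicate 2 and without either NRRA replicate. Tradd had a log2 fold change of 0.26 (SE 0.14) and did not pass the test, but passed it with library size only (0.35, edgeR adjusted p 0.033). The ligand genes Fasl, Tnf and Tnfsf10 had at most 13 counts in a library and did not pass the filter.

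Pmaip1, Bbc3 and Bax belong to the p53 pathway list of 22 genes, of which 16 were lower and 2 were higher in NRRA, with a median log2 fold change of −0.23 (−0.14 with library size only). Over all genes tested, 28.4% were lower and 27.9% were higher. Leaving these 3 members out, 13 of 19 were lower and 2 higher, with a median log2 fold change of −0.23 and a range from −0.58 (Plk3) to 0.32 (Perp), so that none of the 19 fell as far as Pmaip1. Trp53, which encodes p53 itself, was at 169 and 165 CPM in Veh and at 129 and 128 CPM in NRRA (log2 fold change −0.38, SE 0.033, edgeR adjusted p 2.15e-10). Cdkn1a, the p53-induced inhibitor of cyclin-dependent kinases, fell from 311 and 305 CPM to 222 and 220 CPM (−0.48, SE 0.028). The p53 ligase gene Mdm2 changed by −0.13 (SE 0.026), a call lost with library size only (adjusted p 0.178). Perp and Ei24, both p53-induced, were the 2 genes that rose (0.32 and 0.22), and Eda2r was at 0.01 (SE 0.072) and was not called.

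A further 18 genes encode known regulators of family genes or proteins, with a median log2 fold change of −0.17. Of these, 3 were higher and 9 lower, beside 27.9% and 28.4% of all genes tested. With library size only, 5 of the regulators were higher and their median was −0.084. The largest falls were those of Usp9x, a deubiquitinase that stabilises MCL1 (−0.60, SE 0.027), and Atf4, a stress transcription factor that can induce Pmaip1 (−0.60, SE 0.039). Fbxw7, part of a ligase that marks MCL1 for destruction, rose by 0.28 (SE 0.045) on the log2 scale. The p53 relative Trp63, known to induce Pmaip1 and Bbc3 in damaged oocytes, rose by 1.44 (SE 0.29) from a low level, 0.854 ± 0.22 CPM in Veh libraries against 2.33 ± 0.48 CPM (mean ± SD of 2 libraries). Trp73 (0.27, SE 0.51) and Myb (−0.53, SE 0.44) stayed under 1 CPM in the mean of both groups and did not pass the test.

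**Figure D4:**
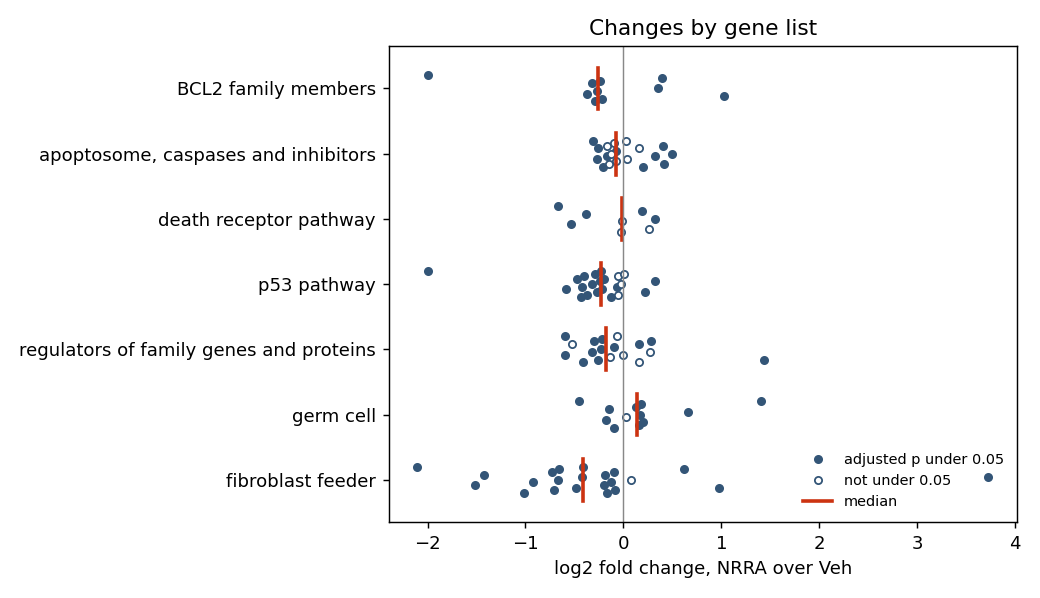
Log2 fold change (NRRA over Veh) of each tested gene in 7 lists, 1 point per gene, filled where the adjusted p was under 0.05, with a line at the median of each list. Pmaip1 lies at the far left of both lists that hold it, the median of the members is −0.26, and the median of the feeder list is −0.41.

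Feeder markers were mostly lower in NRRA, as were 7 of the 10 members. The background for the 3 lists of cell type markers is that 28.4% of all genes tested were lower and 27.9% were higher. Of the 22 feeder genes, 18 were lower and 3 were higher in NRRA, with a median log2 fold change of −0.41 and a range from −2.11 (Col6a3) to 3.73 (Fap). Other extremes were Timp1 (−1.52), Lum (−1.43), Pdgfra (0.98) and Col3a1 (0.61). In the germ cell list, 7 of 12 genes were higher and 4 lower, and the log2 fold changes had a median of 0.14 (0.23 with library size only, where 2 were lower) and a range from −0.45 (Tdrd1) to 1.401 (Sycp3), which also included Tex15 (0.66), Piwil2 (0.20), Tex101 (−0.18) and Mael (−0.15, lost with library size only). Of the 12 Sertoli and Leydig cell genes, 8 passed the filter, 2 of which were higher (Clu, 2.82, and Star, 0.31, whose call was lost with DESeq2 and without any 1 library) and 3 lower (Sox9, −1.59, Inhbb, −1.28, and Inhba, −1.17), while Gata4 (0.48) was not called. Every member is expressed in many cell types, and the part of the feeder cells in the levels of the members was not tested.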

How the data were processed

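Poly(A) RNA of 2 Veh and 2 NRRA libraries was analysed, with groups and replicate numbers taken from the sample titles. The Veh columns of the table are numbered 1 higher than the titles and were matched by the sample descriptions. The authors deposited raw counts per gene. The submitters' processing notes name bcl2fastq, STAR 2.6.1c, featureCounts 1.6.4 and the build mm10. The annotation release and the strand setting are not given in the sources used here. The labels name an Illumina TruSeq kit, and the study's methods a stranded Tecan kit with oligo-dT capture.

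Counts were tested with edgeR 4.0.16 in R 4.3.3 (filterByExpr, TMM, robust quasi-likelihood F test, Benjamini-Hochberg over 20232 genes, threshold 0.05). The study's methods name DESeq2, which was run as an alternative (1.42.0), since the quasi-likelihood test is used here for counts with 2 libraries per group. SE were derived from the F statistic. The TMM factor was 0.969 or 0.97 for Veh and 1.03 for NRRA. Exonic lengths and coordinates came from GENCODE M21 (GRCm38), which held 99.7% of the gene identifiers, and promoter windows from RefSeq (GRCm38.p6). Near-identity was taken from BLAST 2.17.0 matches of at least 95% over at least 100 bases. For a symbol listed under more than 1 identifier (Ddit3), the identifier with more counts was used. The test was checked on simulated data.

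Counting noise alone did not account for the differences between libraries of a group (chi-square per degree of freedom 2.45 in Veh and 1.99 in NRRA, over genes with at least 50 counts), and each was counted separately. The coefficient of variation that edgeR estimated between libraries of a group was 2.61%. The Pearson r of their log2 CPM was 0.993 in Veh and 0.994 in NRRA. None of these values tells whether the libraries of a group came from separate cultures. PCR copies were not told apart. Samples with the same replicate number did not deviate together (correlation of deviations −0.011), and the numbers were not used as pairs.

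The members and gene lists were chosen with earlier results of these data known. The text names every member, every other family gene, Stra8, preset pathway genes (Trp53, Mdm2, Cdkn1a, Casp9, Apaf1, Cycs, Xiap, and 1 that is not reported here), and up to 3 genes at either end of each other list. Genes that overlap a member, and list genes given for their low counts, were named after their values were seen. No set test was run.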

Additional observations from a re-analysis of the deposited data

How the results depend on the processing

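Over 11 other analyses, no member changed direction. Bcl2 and Pmaip1 kept their calls in all of them, and the calls of Bcl2l1, Mcl1, Bax, Bak1, Bcl2l11, Bid and Bad were lost only when tested against a 1.2-fold change, which left 1 member higher and 1 lower, and 3217 higher and 3304 lower genes in all (a count added after seeing the data). Bbc3 was also lost with DESeq2, with library size only (adjusted p 0.159) and without Veh or NRRA replicate 1. Bax (−0.12) and Bcl2l1 (−0.15) moved by over 1.5 times with library size only, keeping their calls. The difference in the log2 ratio of pro-survival to pro-death RPKM (0.36) was 0.25 with the length of the longest transcript, 0.47 with the other family genes added, 0.46 as a mean of log2 (RPKM + 0.1), −0.065 without Pmaip1 (an alternative chosen after seeing the data) and 0.32 to 0.39 when 1 library was left out. Scaling by library size only shifted the median of all genes by 0.09 and moved the higher calls from 49.6% to 60.3% of the total. This setting gave 4 higher other pro-death and divergent genes, 2 lower apoptosome genes, 5 higher regulators and 2 lower germ cell genes. DESeq2 gave 4267 higher and 4317 lower genes and 1 higher gene each in the death receptor and the Sertoli and Leydig lists. Leaving out 1 library gave 1 or 2 higher death receptor genes (1 without Veh replicate 2 or either NRRA replicate), 1 higher Sertoli and Leydig gene in each case, and 0 or 1 lower other pro-survival gene. Leaving out 1 library gave Bik log2 fold changes from −0.021 to 0.20 and Eda2r values from −0.070 to 0.097, none past the test. The cause of these shifts was not tested. With the replicate number as a block, 5772 genes were higher and 5836 lower, and the members' counts stayed at 3 higher and 7 lower. With 2 libraries per group, the spread between replicates is poorly known, and counting error limits the genes with few counts, such as Hrk, Bcl2l14 and Bcl2l15.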
